A study of Homo sapiens with 12 samples.

Results

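This report describes 10 mature miRNAs from a short stretch of the imprinted region of human chromosome 14 that holds MEG3 and RTL1. The rows of the count table whose names equalled hsa-miR-493-5p, hsa-miR-493-3p, hsa-miR-337-3p, hsa-miR-431-5p, hsa-miR-433-3p, hsa-miR-127-5p, hsa-miR-127-3p, hsa-miR-432-5p, hsa-miR-136-5p, and hsa-miR-136-3p were taken, and all 10 of 10 were found among 2588 mature miRNAs. They were chosen by a list drawn up with their counts over the time course already known, so their levels, changes, and calls in the 3 comparisons of time points are given as a description and carry no p-value. All 10 passed the filter on low counts, which left 491 miRNAs tested.

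The study followed epithelial-mesenchymal transition (EMT), the loss of epithelial character, in A549 cells, a human lung adenocarcinoma cell line. Cells grown in medium with serum were moved to serum-free medium before treatment, and small RNA was sequenced at 0 h (before TGF-β), 24 h, and 96 h of TGF-β1 treatment. There were 2 libraries at each time point, and each library was sequenced in 2 runs. By the dates in the sample titles, every library had a run of the same date. The other run had a shared date in both 24 h libraries and a shared later date in both 96 h libraries. At 0 h these dates were split between the libraries. Between 24 h and 96 h, run date is therefore partly confounded with time point. No untreated culture at 24 h or 96 h was analysed here, so TGF-β and time in culture cannot be told apart, and the labels do not say whether the 2 libraries of a time point came from separate cultures, so the spread between them may be technical.

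Imprinted genes are expressed from the allele of one parent. In this region the long noncoding RNA MEG3 and the miRNAs are made from the maternal allele, whereas DLK1 and the protein-coding gene RTL1 are made from the paternal allele. RTL1 derives from a retrotransposon, and a group of the miRNAs is encoded on the opposite strand of its coding sequence, so that these miRNAs pair perfectly with RTL1 mRNA and can direct its cleavage. A miRNA hairpin yields a 5p and a 3p mature strand from its 2 arms. The strand loaded into Argonaute recognizes targets mainly through its seed, bases 2 to 8.

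The mature sequences are shown because the seeds define which targets each miRNA could recognize and because the perfect pairing to RTL1 can be read from them. They are RefSeq sequences (GRCh38.p14 table, 10 of 10 matched), written 5′ to 3′ with the seed in capitals.
hsa-miR-493-5p: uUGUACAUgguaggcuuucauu
hsa-miR-493-3p: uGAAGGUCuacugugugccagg
hsa-miR-337-3p: cUCCUAUAugaugccuuucuuc
hsa-miR-431-5p: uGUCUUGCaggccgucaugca
hsa-miR-433-3p: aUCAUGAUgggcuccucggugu
hsa-miR-127-5p: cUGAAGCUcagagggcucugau
hsa-miR-127-3p: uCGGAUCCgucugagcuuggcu
hsa-miR-432-5p: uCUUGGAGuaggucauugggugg
hsa-miR-136-5p: aCUCCAUUuguuuugaugaugga
hsa-miR-136-3p: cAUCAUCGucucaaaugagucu

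The 10 miRNAs had 10 distinct seeds, and none of the seeds was shared with another miRNA of the count table among the 2281 that had a RefSeq sequence. The group is therefore defined by its position and is not a seed family. The first base was U in 5 of the 10 (50.0%), beside 173 of the 434 tested miRNAs with a sequence (39.9%). The median GC content was 53.4%, with a range from 34.8% to 59.1%, beside 47.6% in the tested miRNAs.

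The 10 miRNAs come from 7 hairpins within 15.7 kb of the plus strand of chromosome 14. Each mature sequence matched 1 place in the region of GRCh37, the build named in the submitters' processing notes as hg19, and gene positions are those of GENCODE. In order, the hairpins are MIR493 (chr14:101335397-101335485), MIR337 (chr14:101340830-101340922), MIR431 (chr14:101347344-101347457), MIR433 (chr14:101348220-101348343), MIR127 (chr14:101349316-101349412), MIR432 (chr14:101350820-101350913), and MIR136 (chr14:101351034-101351125). All 10 mature sequences lie in an intron of the noncoding gene MIR493HG and outside MEG3 (chr14:101245747-101327368, plus strand). The miR-493 pair and miR-337-3p lie outside RTL1 (chr14:101346090-101370059, minus strand), and the other 7 lie opposite its coding exon.

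For these 7 miRNAs the full-length complement was found in annotated transcripts of RTL1 and of no other gene, and for the other 3 it was found in no annotated transcript. The RTL1 strand is shown for 3 of them, the most abundant member, the member with the largest difference between 96 h and 0 h, and the member without an increase. It is written 5′ to 3′ as in the RTL1 mRNA, and the capitals mark the bases opposite the seed.
RTL1 opposite hsa-miR-127-3p: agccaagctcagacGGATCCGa
RTL1 opposite hsa-miR-136-3p: agactcatttgagaCGATGATg
RTL1 opposite hsa-miR-431-5p: tgcatgacggcctGCAAGACa
A perfect match is a property of the sequences. RTL1 mRNA was not measured in these libraries, so whether it was expressed or cleaved in A549 cells was not tested.

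Totals on mature miRNAs ranged from 2335185 to 5971197 reads and were highest at 96 h, and miR-21-5p alone took from 52.4% to 65.5% of a library. Levels are given as CPM (reads scaled to a fixed library total) after TMM normalization, which scales libraries so that most miRNAs do not change. On this scale 1 read was worth from 0.227 to 0.372 CPM, and TMM factors ranged from 0.738 to 1.36. The scaling moved all values, since over the 491 tested miRNAs the log2-fold change between 96 h and 0 h had a median of -0.10 with TMM and -0.83 when libraries were scaled to their total counts.

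The group was higher at 96 h than at 0 h, led by miR-127-3p. The summed level of the 10 miRNAs was 1202 and 1205 CPM in the 0 h libraries, 1430 and 1476 CPM in the 24 h libraries, and 2509 and 2618 CPM in the 96 h libraries. The 3 time points did not overlap. As a plain share of all reads the sum was 0.141% and 0.164% at 0 h, 0.151% and 0.150% in the 24 h libraries, and 0.185% and 0.207% at 96 h, so on this scale the 24 h libraries lay within the range of the 0 h libraries, while both 96 h libraries remained the highest. Most reads of this sum were miR-127-3p. Without it the members had 514 and 473 of 2335185 and 2456447 reads at 0 h. At 24 h they had 773 and 959 of 2545769 and 3214230 reads, a higher share in both libraries than in either 0 h library.

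Between 96 h and 0 h, 9 of the 10 miRNAs had a log2-fold change above 0 with TMM and 1, miR-431-5p, had one below 0. With a call defined as an adjusted p under 0.05 (edgeR's quasi-likelihood test, Benjamini-Hochberg adjustment over the 491 miRNAs) and a log2-fold change above 1, 7 of the 10 were called higher and none lower, in a comparison in which 12.6% of all tested miRNAs were called higher. The 7 were miR-493-5p, miR-493-3p, miR-127-5p, miR-127-3p, miR-432-5p, miR-136-5p, and miR-136-3p. Both 96 h libraries lay above both 0 h libraries for 9 of the 10, beside 33% of all tested miRNAs, and with total counts for 7 of the 10, beside 14.1%. The median log2-fold change was 1.37 over the 10 and -0.10 over all tested miRNAs. When the libraries were scaled to total counts, the median of the 10 was 0.64 and 2 of them, miR-127-5p and miR-136-3p, were called higher, beside 23 of all 491. The scaling also changed the balance of calls over all tested miRNAs, since 23 of the 215 called were higher with total counts and 62 of the 127 called with TMM. The distance from the median of all tested miRNAs was 1.47 under both scalings, which carries no further information, since a scaling shifts all miRNAs by nearly the same amount.

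**Figure D1:**
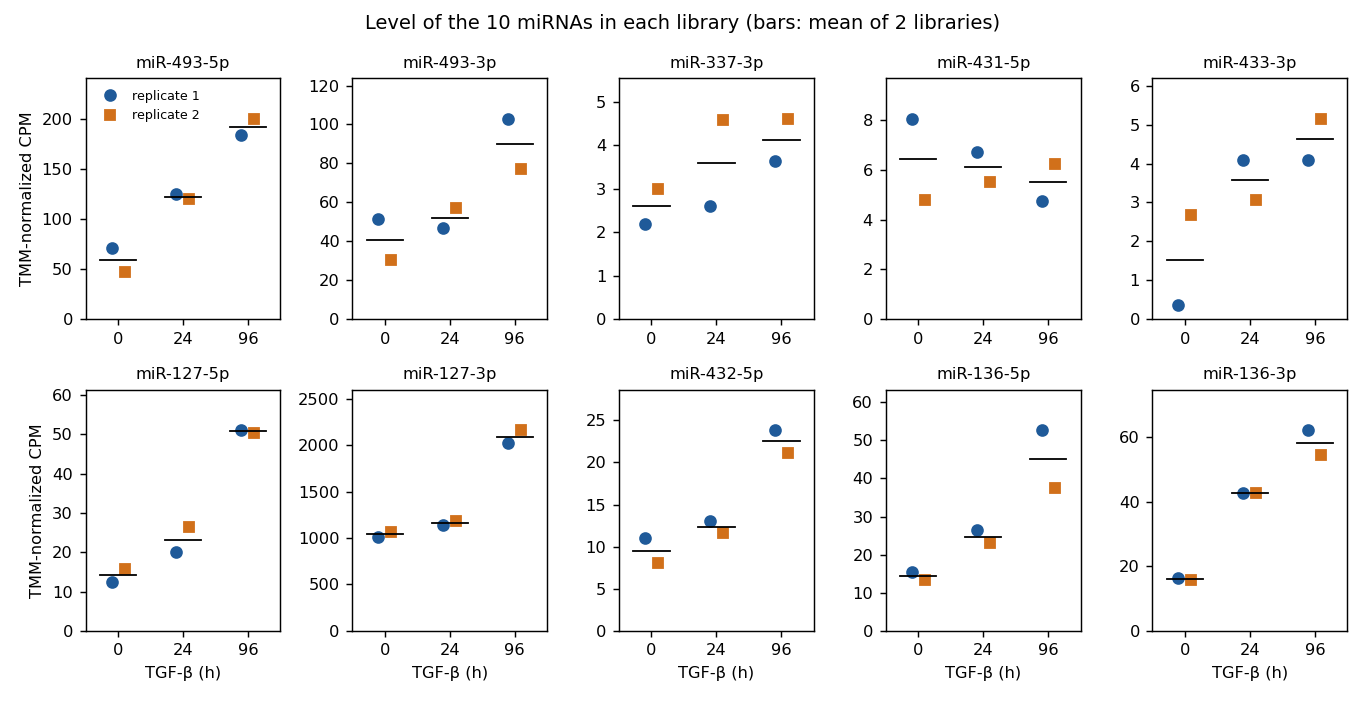
TMM-normalized CPM (vertical axis, linear and from 0, with its own scale in each panel) of the 10 miRNAs at 0, 24, and 96 h of TGF-β treatment; circles and squares are replicates 1 and 2, and bars are their mean. Both 96 h libraries lie above both 0 h libraries in 9 panels, with miR-431-5p as the exception, and miR-127-3p reaches 2020 and 2161 CPM.

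The miR-127 hairpin gave most of the reads. hsa-miR-127-3p, which maps opposite RTL1, had 1014 and 1064 CPM at 0 h, 1142 and 1183 CPM at 24 h, and 2020 and 2161 CPM at 96 h. Both 24 h libraries lay just above the 0 h libraries, and the 96 h libraries stood clear of both. The log2-fold change was 0.16 ± 0.13 (SE, n = 2 per time point) from 0 h to 24 h and 0.85 ± 0.13 from 24 h to 96 h, giving 1.01 ± 0.13 over the whole course. This lay so close to the threshold of 1 that the call was lost without 0 h replicate 1 (0.97), 24 h replicate 2 (0.95), or 96 h replicate 2 (0.90). The call was also lost with libraries thinned to the smallest total (0.94) and with a mean of at least 10 CPM (0.86). With total counts without miR-21-5p the log2-fold change over the whole course was 0.65, and with limma on the normalized values it was 0.21. With total counts and all libraries the log2-fold change was -0.13 from 0 h to 24 h and 0.28 over the whole course, so the direction at 24 h depended on the scaling.

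hsa-miR-127-5p, the minor strand of the same hairpin, had 12.5 and 15.8 CPM at 0 h, 20.1 and 26.3 CPM at 24 h, and 51.1 and 50.5 CPM at 96 h. The 3 time points did not overlap with TMM, whereas with total counts 0 h and 24 h did. Its log2-fold change between 96 h and 0 h was 1.83 ± 0.23, and it was the only member called higher between 96 h and 24 h (1.12 ± 0.22), where 3.67% of all tested miRNAs were called higher. That call was lost without either 96 h library, without 24 h replicate 1, and with total counts, where the log2-fold change was 0.69. The call was also lost with total counts without miR-21-5p (0.95). With limma on the normalized values this log2-fold change was 0.69. Over all omissions of single libraries its log2-fold change ranged from 0.95 to 1.35.

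The miR-136 hairpin is the last of the stretch, and both of its strands were members. hsa-miR-136-3p had 16.5 and 15.8 CPM at 0 h, 42.8 CPM in both 24 h libraries, and 62.2 and 54.5 CPM at 96 h. Its log2-fold change was already 1.41 ± 0.21 at 24 h, and the step between 24 h and 96 h was 0.45 ± 0.19 with TMM but 0.0063 with total counts. Over the whole course it was 1.85 ± 0.20, which was not separated by its error from the 1.83 ± 0.23 of miR-127-5p or the 1.70 ± 0.21 of miR-493-5p. hsa-miR-136-5p had 15.4 and 13.4 CPM at 0 h, 26.4 and 23.0 CPM at 24 h, and 52.7 and 37.4 CPM at 96 h, with a log2-fold change of 1.65 ± 0.25 over the whole course. Its step from 24 h to 96 h (0.87 ± 0.24) was within error of that from 0 h to 24 h (0.78 ± 0.26), and with total counts the earlier step was the larger (0.49 against 0.43). With TMM both strands were ordered by time without overlap, whereas with total counts the 24 h and 96 h libraries of miR-136-3p overlapped.

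At 24 h only miR-136-3p and hsa-miR-493-5p were called higher than at 0 h, 2 of the 10, in a comparison in which 1.22% of all tested miRNAs were called higher. Both calls were lost on the adjusted p when either 24 h library was left out, with log2-fold changes still at 1.41 and 1.33 for miR-136-3p and at 1.02 and 1.01 for miR-493-5p, and without 0 h replicate 2, 96 h replicate 1, or 96 h replicate 2 only 1 was called. The call of miR-493-5p was also lost with total counts (log2-fold change 0.78), with total counts without miR-21-5p (0.88), and with limma on the normalized values (0.77). Both 24 h libraries lay above both 0 h libraries for 7 of the 10, beside 29.3% of all tested miRNAs, but with total counts for only 3 of the 10, beside 59 of the 491. The 3 that overlapped with TMM were miR-493-3p, miR-337-3p, and miR-431-5p. The median log2-fold change at 24 h was 0.59 over the 10 and -0.0041 over all tested miRNAs (0.29 over the 10 with total counts).

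hsa-miR-493-5p, from the first hairpin, had 71.1 and 47.2 CPM at 0 h, 125 and 120 CPM at 24 h, and 184 and 200.2 CPM at 96 h. The time points did not overlap, and the difference between the 0 h libraries was the widest of the 3 pairs. The log2-fold change was 1.05 ± 0.21 at 24 h and 1.70 ± 0.21 at 96 h. Its partner hsa-miR-493-3p had 51.3 and 30.4 CPM at 0 h, 46.9 and 56.9 CPM at 24 h, and 103 and 77.3 CPM at 96 h. For this strand 0 h and 24 h overlapped, and the log2-fold change was 0.36 ± 0.27 at 24 h and 1.15 ± 0.26 at 96 h. The 24 h value was 0.77 without 0 h replicate 1, 0.021 without 0 h replicate 2, and 0.13 when 24 h replicate 2 was left out. The call at 96 h was lost when 0 h replicate 2 (0.82) or 96 h replicate 1 (0.88) was left out. It was also lost with total counts (0.44) and with total counts without miR-21-5p (0.81). With limma on the normalized values the log2-fold change at 96 h was 0.60.

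hsa-miR-432-5p had 11.0 and 8.06 CPM at 0 h, 13.0 and 11.6 CPM at 24 h, and 23.8 and 21.2 CPM at 96 h. Its log2-fold change was 0.38 ± 0.30 from 0 h to 24 h and 0.87 ± 0.27 from 24 h to 96 h. These steps lie within their errors of each other, and the difference between them was not tested. The 24 h value was 0.61 when 0 h replicate 1 was left out and 0.16 when 0 h replicate 2 was. Its log2-fold change of 1.25 ± 0.28 at 96 h was called, but not without 96 h replicate 1 (1.11) or with total counts (0.53). The call was also lost with total counts without miR-21-5p (0.90). With limma on the normalized values the log2-fold change at 96 h was 0.66.

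Among the 9 miRNAs with a positive difference at 96 h, the step from 0 h to 24 h was the larger in 4 (miR-493-5p, miR-337-3p, miR-433-3p, and miR-136-3p) and the step from 24 h to 96 h in 5. With total counts 8 of the 9 kept the same larger step, miR-136-5p being the exception. This carries little further information, since a scaling shifts each step by nearly the same amount in all miRNAs. Some of these orders lie within error, as for miR-337-3p with steps of 0.48 ± 0.55 and 0.16 ± 0.50. The differences between the steps were not tested. Both 96 h libraries lay above both 24 h libraries for 7 of the 10, beside 30.3% of all tested miRNAs, and with total counts for 6 of the 10, beside 13.0%. The median log2-fold change of the second step was 0.72 over the 10 and -0.05 over all tested miRNAs (0.28 over the 10 with total counts).

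**Figure D2:**
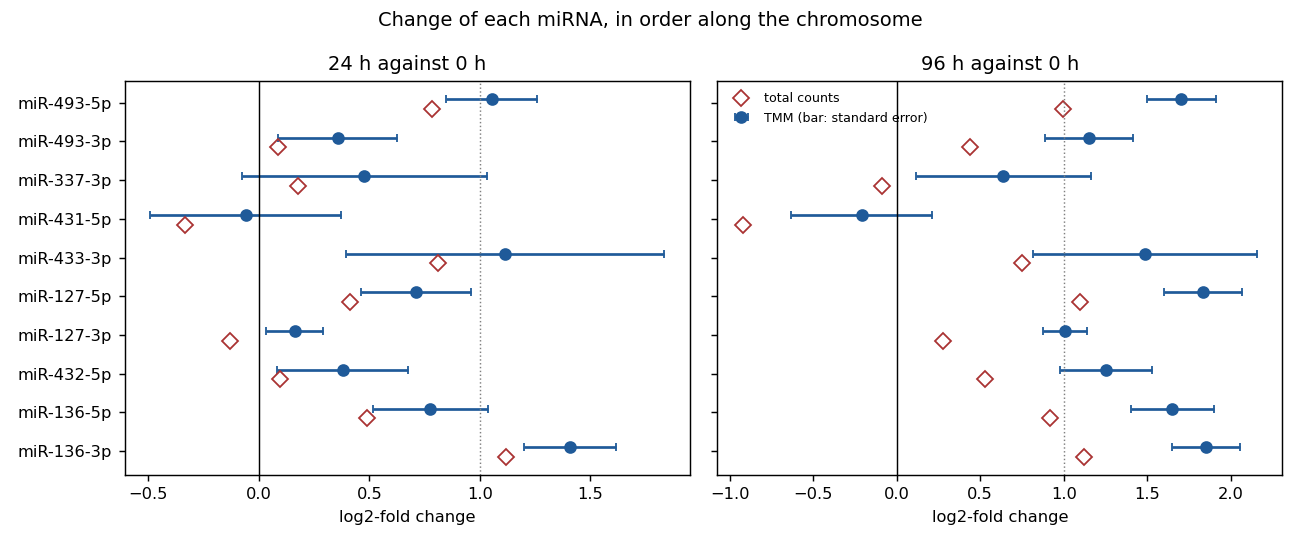
Log2-fold change (horizontal axis) of each miRNA in order along the chromosome, at 24 h and at 96 h against 0 h; filled circles are TMM values with their standard error, open diamonds are values from total counts, and the dotted line marks the threshold of 1. All diamonds lie to the left of the circles, and the direction differs between the scalings for miR-127-3p at 24 h and for miR-337-3p at 96 h.

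The 3 members with the fewest reads were not called in any comparison of all 6 libraries. hsa-miR-337-3p had from 6 to 17 reads in a library, equal to 2.20 and 2.99 CPM at 0 h, 2.61 and 4.59 CPM at 24 h, and 3.63 and 4.61 CPM at 96 h. Its log2-fold change at 96 h was 0.64 ± 0.53 with TMM and -0.09 with total counts, so its direction was not settled. For hsa-miR-433-3p the 0 h libraries held 1 and 9 reads, the 24 h libraries 11 and 10, and the 96 h libraries 18 and 19. This was 0.367 and 2.69 CPM at 0 h, 4.10 and 3.06 CPM at 24 h, and 4.09 and 5.16 CPM at 96 h. The single read in 0 h replicate 1 set the size of the difference, since the log2-fold change at 96 h was 1.48 ± 0.67 with all libraries, 0.77 without that library, and 3.52 without 0 h replicate 2, where it would have been called.

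hsa-miR-431-5p, from the first hairpin opposite RTL1, was the one member without an increase at 96 h with TMM. It had 8.06 and 4.78 CPM at 0 h, 6.70 and 5.51 CPM at 24 h, and 4.77 and 6.24 CPM at 96 h, or from 16 to 23 reads in every library. With TMM the time points overlapped, whereas with total counts both 96 h libraries lay below both 0 h and both 24 h libraries. The log2-fold change at 96 h was -0.21 ± 0.42 with TMM. Leaving out single libraries moved it from -0.56 to 0.19, and with total counts it was -0.92. Runs could be separated in 5 libraries, with counts per run worked out from the normalized signal. In 1 of these, 24 h replicate 1, the run with 1869945 reads held 17 reads of miR-431-5p. The run with 921216 reads held 1.

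Shares within the group do not depend on how libraries are scaled. miR-127-3p held 84.3% and 88.3% of the reads of the 10 miRNAs at 0 h, 79.9% and 80.1% in the 24 h libraries, and 80.5% and 82.5% at 96 h. Its share was thus lower in all 4 treated libraries than in either 0 h library. The share of miR-136-3p was 1.37% and 1.31% at 0 h, 2.99% and 2.90% in the 24 h libraries, and 2.48% and 2.08% at 96 h. It was highest at 24 h, without overlap between time points. The share of miR-493-5p was 5.91% and 3.91% at 0 h, 8.75% and 8.11% in the 24 h libraries, and 7.32% and 7.65% at 96 h, which is the same order. These shares move against that of miR-127-3p. Among the reads of the other 9 miRNAs alone, the share of miR-493-5p was 37.7% and 33.4% at 0 h and 43.5% and 40.8% in the 24 h libraries. At 96 h it was 37.6% and 43.8%. Both 24 h libraries thus lay above both 0 h libraries, while 96 h overlapped with both other time points. The share of miR-136-3p kept its order without overlap, at 8.75% and 11.2%, then 14.9% and 14.6%, then 12.7% and 11.9%.

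The share of miR-431-5p was 0.671% and 0.396% at 0 h, 0.469% and 0.373% in the 24 h libraries, and 0.190% and 0.238% at 96 h. Both 96 h libraries lay below the other 4. The 95% Wilson intervals of the closest libraries still overlapped, at 0.236% to 0.589% in 24 h replicate 2 and 0.159% to 0.357% in 96 h replicate 2. Such intervals cover counting error only, since copies made by PCR were counted like separate RNA molecules.

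**Figure D3:**
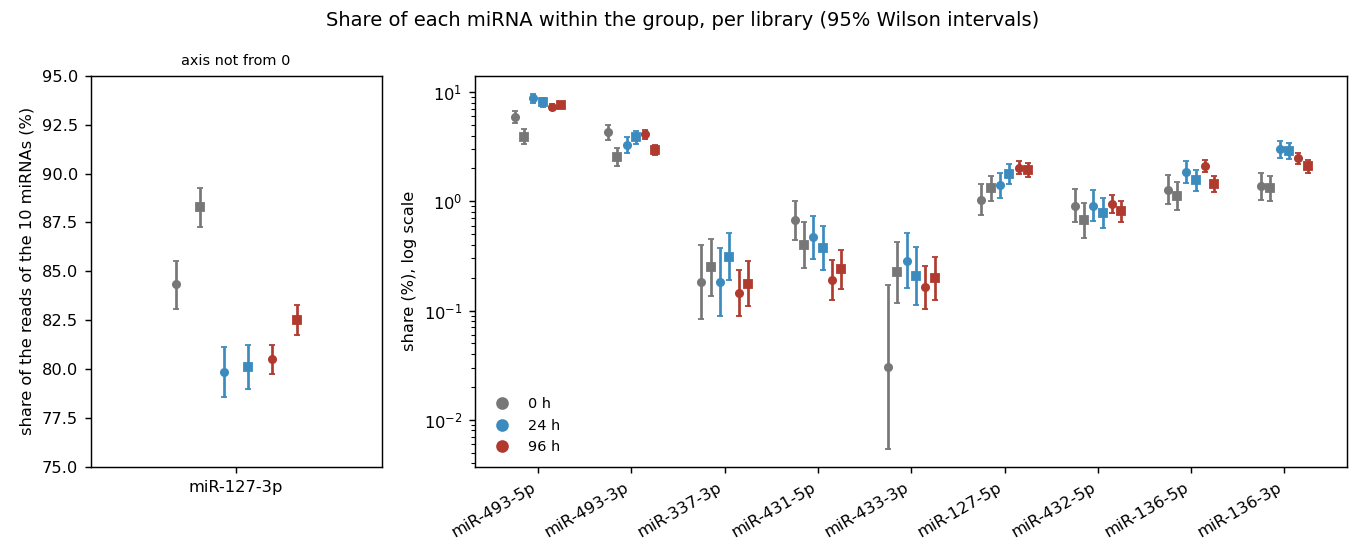
Share of each miRNA in the reads of the 10 miRNAs (vertical axis in percent, not starting at 0 for miR-127-3p and on a log scale for the other 9), with 1 point per library, circles for replicate 1 and squares for replicate 2, and 95% Wilson intervals. miR-127-3p lies between 79.9% and 88.3%, and the share of miR-136-3p is highest in the 24 h libraries.

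In 3 hairpins both strands were members, and the ratio of the strands within a library is also free of scaling. The 5p strand made up 1.21% and 1.46% of the miR-127 reads at 0 h, 1.73% and 2.18% in the 24 h libraries, and 2.47% and 2.28% at 96 h. The time points did not overlap, and the log2 ratio of 5p to 3p was higher by 0.85 at 96 h than at 0 h, although miR-127-3p remained the major strand by far. For miR-493 the 5p share was 58.1% and 60.8% at 0 h, 72.7% and 67.8% in the 24 h libraries, and 64.1% and 72.1% at 96 h. The log2 ratio was higher by 0.55 at 96 h than at 0 h, by 0.28 without 96 h replicate 2, and by 0.82 without 96 h replicate 1.

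For miR-136 the 5p share was 48.3% and 45.9% at 0 h, 38.2% and 34.9% in the 24 h libraries, and 45.8% and 40.7% at 96 h. At 24 h the log2 ratio of 5p to 3p differed by -0.63 from 0 h, and no share over all hairpins was counted for 24 h. The difference at 96 h was -0.22, with values just below those at 0 h. Without 96 h replicate 2 it was -0.072, and without 96 h replicate 1 it was -0.37. All 3 hairpins thus had 96 h libraries outside the range of the 0 h libraries, 2 above and 1 below, beside 57 of the 108 hairpins with both strands tested (52.8%), of which 28 were above and 29 below. The exact two-sided permutation test gave p = 0.333 for each, which is the smallest p that 2 libraries against 2 allow, so a difference could not have passed 0.05.

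**Figure D4:**
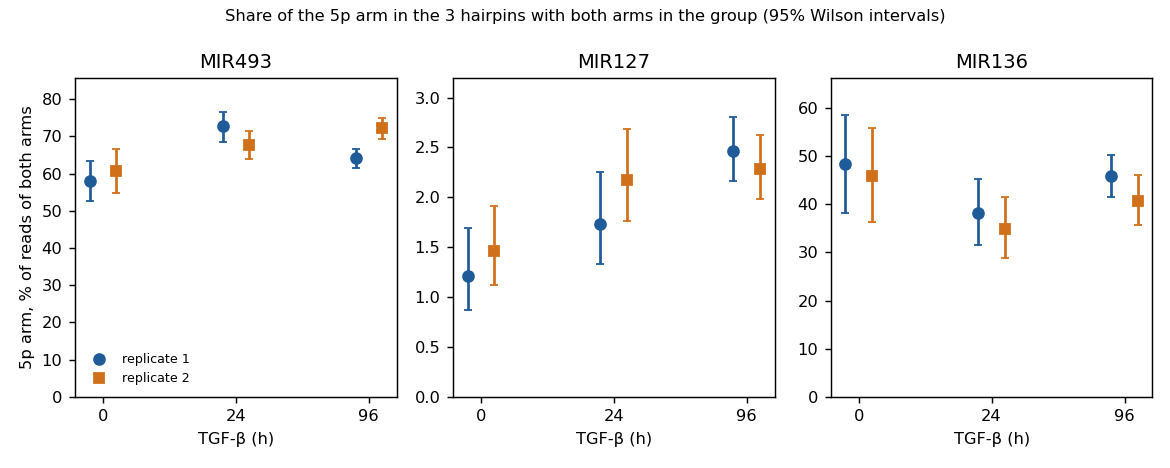
Share of the 5p strand in the reads of both strands (vertical axis in percent, from 0) for MIR493, MIR127, and MIR136 at 0, 24, and 96 h; circles and squares are replicates 1 and 2, and bars are 95% Wilson intervals. The 5p share of MIR127 is 1.21% and 1.46% at 0 h, against 2.47% and 2.28% at 96 h, and that of MIR136 is lowest at 24 h.

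In 2 further hairpins 1 strand was a member and the other had reads in every library. hsa-miR-431-3p, which was not a member and did not pass the filter, had 3 reads in each 0 h library and 5 in each 24 h library, and its reads numbered 21 and 10 at 96 h. The 5p strand therefore made up 88.0% and 84.2% of the reads of this hairpin at 0 h but 50.0% and 69.7% at 96 h, with p = 0.333 in the exact permutation test and few reads behind each value. The 95% Wilson intervals at 0 h were 70.0% to 95.8% and 62.4% to 94.5%. At 96 h that of replicate 1 (35.5% to 64.5%) overlapped only with the second of these, and that of replicate 2 (52.7% to 82.6%) overlapped with both. For miR-337 the 5p share was 33.3% and 47.4% at 0 h, which overlapped with 40.7% and 52.8% at 96 h.

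Of 7 further miRNAs listed from the MEG3 and RTL1 part of the region, 7 were detected, 2 were tested, and 0 were called in any comparison by edgeR or DESeq2, with 1 at an unadjusted p under 0.05 at 96 h, beside 55.8% of all tested miRNAs, and 0 in the other comparisons. The 2 were hsa-miR-337-5p, with log2-fold changes of 0.91 at 24 h and 0.93 at 96 h, and hsa-miR-665, with 0.62 and 1.22. Both had at most 33 reads in a library and lie among the hairpins of the 10, as do hsa-miR-431-3p, hsa-miR-433-5p, and hsa-miR-432-3p, whereas hsa-miR-770-5p and hsa-miR-2392 lie within MEG3, 73.0 and 35.1 kb from its start. Of the 5 that did not pass the filter, all but hsa-miR-431-3p had at most 4 reads in any library. The neighbouring hsa-miR-370-3p, named after its values were seen, had a mean of 85.8 CPM at 0 h, 146 CPM at 24 h, and 206 CPM at 96 h and was called at 96 h (log2-fold change 1.26).

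The large cluster from miR-379 to miR-656 lies further along the same strand, from 243 to 287 kb beyond the start of MEG3, whereas the 10 miRNAs lie from 89.7 to 105 kb. Of its 74 listed miRNAs 40 were tested, with median log2-fold changes of 0.64 at 24 h and 1.29 at 96 h, close to the 0.59 and 1.37 of the 10. At 24 h 0 of the 40 were called by edgeR or by DESeq2, although 20 had an unadjusted p under 0.05, beside 28.3% of all tested miRNAs. At 96 h 26 of the 40 were called by edgeR, all higher, beside the 12.6% called higher among all tested miRNAs. No difference between the groups was tested, and both sets of values share the same libraries and scaling.

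**Figure D5:**
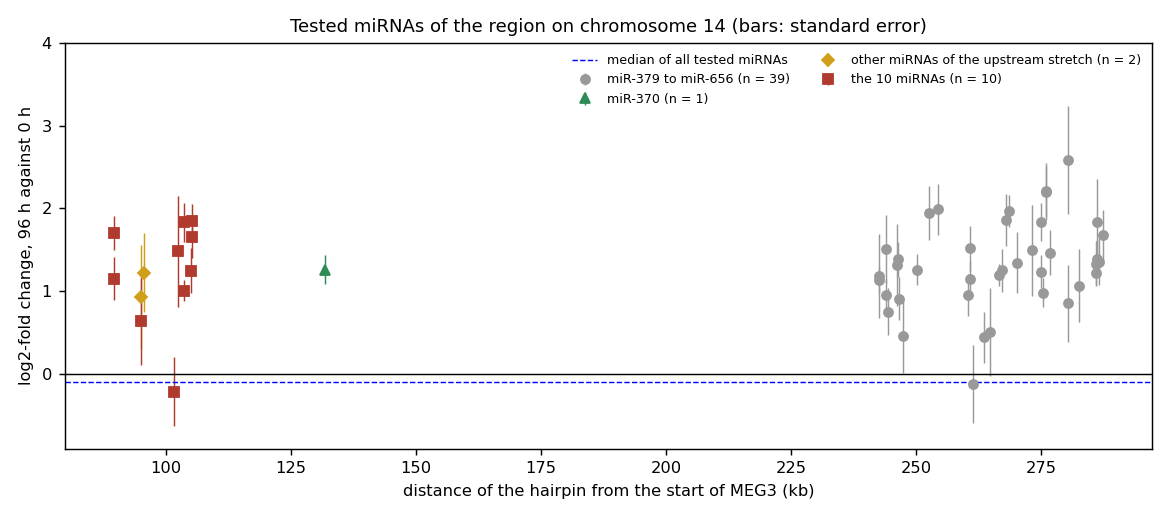
Log2-fold change at 96 h against 0 h with TMM (vertical axis, bars are standard errors) against the distance of the hairpin from the start of MEG3 in kb, for the 10 miRNAs, 2 further miRNAs among their hairpins, miR-370, and 39 tested miRNAs of the downstream cluster with a place in the annotation; the dashed line is the median of all tested miRNAs. Apart from miR-431-5p the 10 lie between 0.64 and 1.85, within the spread of the downstream cluster; with total counts miR-337-3p falls to -0.09.

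Outside the region, the miRNAs whose course over the 6 libraries was most like the mean course of the 10 were miR-450b-5p, miR-181a-3p, miR-100-5p, miR-21-5p, and miR-31-3p. Likeness was the root mean square difference of centred log2(CPM + 0.5), and it ranged from 0.0956 to 0.165 for these 5. Members themselves ranged from 0.188 for miR-432-5p to 0.624 for miR-431-5p. The 5 outside the region ranked from 3 to 11 among all tested miRNAs. Of the first 40 in this order 19 were of the region, downstream cluster included, as were 53 of all 491. The 10 themselves formed the mean course, so this order is a description.

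Markers of other cells were checked, since miRNAs of this region are abundant in some mesenchymal and neural cells. Of 5 fibroblast-enriched miRNAs (the miR-199 and miR-214 strands) 0 passed the filter, and their summed level was 1.19 to 2.20 CPM at 0 h, 0.372 to 4.28 CPM at 24 h, and 2.44 to 4.31 CPM at 96 h, with both miR-214 strands at 0 reads in every library. Blood-cell miRNAs summed to 4.78 to 5.50 CPM at 0 h and 1.13 to 1.36 CPM at 96 h. Epithelial miRNAs, 6 of 7 found in the table and mostly of the miR-200 family, were present throughout, at 119 to 120 CPM at 0 h, 153 to 181 CPM at 24 h, and 235 to 243 CPM at 96 h. This sum was carried by miR-200a-3p and miR-200b-3p, with log2-fold changes of 0.81 and 1.60 at 96 h, whereas that of miR-200c-3p was -0.03, that of miR-141-3p -1.14, and that of miR-429 0.20, and miR-205-5p had 0 reads in the 96 h libraries. The part of these miRNAs in the results was not tested. In such bulk libraries more cells with a miRNA and more of it per cell cannot be told apart.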

How the data were processed

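Small RNA was sequenced with Illumina's small RNA kit and counted by the authors with miRDeep2. The release of the miRNA reference is not given in the sources used here. The authors deposited counts per mature miRNA and precursor, with both runs of a library summed, and a normalized signal in which each run was scaled to a fixed total and both were added. Among the normalized columns 1 repeated another and was not used, so this signal covered 1 library at 96 h.

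For each miRNA 1 entry was used. In R 4.3.3, edgeR 4.0.16 fitted all 6 libraries with TMM normalization, filterByExpr (minimum count 10), time point as the only term, and the quasi-likelihood test; the procedure was tested on simulated data. The study's threshold was used (adjusted p under 0.05, absolute log2-fold change above 1). Strand ratios used exact permutation tests (scipy 1.17.1). Alternatives included DESeq2 1.42.0 and limma 3.58.1 on log2(normalized value + 1). Likeness used a pseudocount of 0.5 CPM because of zeros. Named miRNAs were all 10 members, 7 further miRNAs listed from the MEG3 and RTL1 part of the region, and the 5 most alike outside the region; miR-370-3p and single marker miRNAs were named after their values were seen. The members, lists, and named miRNAs were chosen with earlier results of these data known.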

Additional observations from a re-analysis of the deposited data

Results flagged for a closer look

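hsa-miR-127-5p was called in one interval of the time course and not in the other. It was called higher between 96 h and 24 h with a log2-fold change of 1.12 ± 0.22 (SE), and its log2-fold change of 0.71 ± 0.25 between 24 h and 0 h was not called. These steps lie within their errors of each other, and the difference between them was not tested. Groups of 2 libraries are too small for a check of single libraries that stand apart.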

How the results depend on the processing

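With total counts 1, 2, and 0 members were called in the 24 h to 0 h, 96 h to 0 h, and 96 h to 24 h comparisons, beside 5, 23, and 14 of all 491 called higher, with medians of 0.29, 0.64, and 0.28; with total counts without miR-21-5p the numbers were 1, 4, and 0, beside 5, 39, and 14, with medians of 0.41, 1.01, and 0.55; with limma on the normalized values they were 1, 3, and 0, beside 3, 19, and 3, with medians of 0.41, 0.74, and 0.23, where 96 h had 1 library whose spread was assumed to be that of the 0 h and 24 h libraries. A mean of at least 10 CPM left 7 members tested. At 24 h 1 of them was called, beside 7 called higher among all miRNAs tested with this filter. At 96 h the median over the 7 members was 1.51. That median is not over the same members as the others. Fitting only the libraries compared left 1 call at 24 h, beside 4 of all 491 called higher. With no minimum fold change miR-127-3p and miR-136-5p were called between 96 h and 24 h besides miR-127-5p. Reversed directions, for total counts, for total counts without miR-21-5p, and for limma in that order, were -0.13, -0.021, and -0.10 for miR-127-3p at 24 h and -0.27, -0.0069, and -0.78 for miR-337-3p between 96 h and 24 h. For total counts and limma they were -0.088 and -0.41 for miR-337-3p at 96 h and -0.063 and -0.41 for miR-433-3p between 96 h and 24 h. Thinning all libraries to the smallest total gave 0.0058 for miR-431-5p at 24 h and -0.39 for miR-337-3p between 96 h and 24 h. The cause was not tested.

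Leaving out single libraries lowered the number of members called in some fits of all 3 comparisons. It also moved the number called among all tested miRNAs, so the loss of calls is not a result about the members. It gave medians of 0.40 to 0.74 at 24 h, 1.22 to 1.52 at 96 h, and 0.61 to 0.73 between 96 h and 24 h. It turned the direction of miR-431-5p at 24 h (-0.41 to 0.34), at 96 h (-0.56 to 0.19), and between 96 h and 24 h (-0.33 to 0.063), and of miR-337-3p at 24 h (-0.087 to 0.80) and between 96 h and 24 h (-0.16 to 0.67). A lone remaining library was assumed to vary like the other time points. The deviations of same-numbered libraries had r of -0.31 between 0 h and 24 h, 0.33 between 0 h and 96 h, and -0.20 between 24 h and 96 h across 491 miRNAs, so not every pair of time points deviated together and the numbers were not taken as pairs. With the replicate block 2, 7, and 1 members were called, beside 9, 63, and 21 of all 491 called higher, with medians of 0.59, 1.39, and 0.71. Swapping the 24 h numbers, a choice made after seeing the data, also gave 2, 7, and 1, beside 12, 68, and 21 of the 491. DESeq2's size factors gave 2, 7, and 1 members, beside 8, 75, and 20 of the 491. The Wald test of DESeq2 gave the same numbers of members, beside 7, 69, and 18. No expression filter also gave 2, 7, and 1, beside 13, 86, and 26 called higher among all miRNAs then tested. Among 501 values of single members 444 kept direction and side of the threshold, 38 were no longer past it, 1 was newly past it, and 18 turned in direction. Depth limits miR-337-3p, miR-431-5p, and miR-433-3p, where 3 reads were worth from 0.681 to 1.12 CPM.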
